A study of Mus musculus with 2 samples.

Results

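The genes of the cornified envelope were read in prostaspheres with and without Sox9. Members were all genes on the array with a name that starts with Sprr or Lce, and 16 single genes: Ivl, Lor, Flg, Rptn, Cnfn, Crct1, Tgm1, Tgm3, Tgm5, Ppl, Evpl, Scel, Sbsn, Krtdap, Casp14 and Cdsn. This gave 42 of the 27827 gene names on the array, with 51 probes, by a rule that reads gene names only. Prostaspheres, spheres that prostate epithelial cells form in Matrigel, were grown from UGS epithelium of 16-dpc embryos on a C57/Bl6J background according to the deposited labels, while the methods describe adult prostate for this assay. In ER-Sox9flox/flox cells both Sox9 alleles are floxed, and a TAM-activated Cre is expressed from the Rosa26 locus, so deletion is not limited to one cell type. All cultures had 6 days in Matrigel with dihydrotestosterone and then 6 days of TAM (5 µM) or vehicle. The genotype comparison held TAM-treated wild-type cells in Cy5 and TAM-treated ER-Sox9flox/flox cells in Cy3. The treatment comparison held ER-Sox9flox/flox cells only, with vehicle in Cy5 and with TAM in Cy3. The labels give both of its RNAs the same genotype, Sox9 null, so the vehicle RNA is taken as Sox9-expressing from its treatment and title. Vehicle and TAM therefore differ between the RNAs of the treatment comparison, and presence of the floxed allele and Cre differs between those of the genotype comparison. Each comparison is 1 array, both on 1 slide, and no array had the dyes swapped, so dye and Sox9 cannot be told apart. Every log2 ratio below is Sox9-expressing over Sox9-deleted RNA, so a positive value is higher with Sox9, and n = 2 arrays. The labels give the 4 RNAs different numbers but do not say whether they came from separate animals. The p-values use the spread between these arrays, which differ in what they compare and may also differ technically. With 2 arrays they rest mainly on the spread over all probes, which is no measure of variation between animals.

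The cornified envelope is the cross-linked protein shell that replaces the plasma membrane of stratified squamous cells at the end of their differentiation. Involucrin (Ivl) and the plakins form an early scaffold under the membrane. Loricrin (Lor), the small proline-rich (Sprr) proteins and the late cornified envelope (Lce) proteins are then joined to it by transglutaminases. Most of these genes lie together in the epidermal differentiation complex. Glandular prostate epithelium does not normally cornify, and squamous metaplasia of the prostate is the setting in which such genes are best known there.

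Lor was higher with Sox9 on both arrays, and so was suprabasin (Sbsn), while Ivl, Sprr1a, Sprr2f and cysteine-rich C-terminal 1 (Crct1) were lower with Sox9 on both arrays. The Lce genes were dim, with means near 0. A further 6 Sprr2 genes, set together for their signs, were lower with Sox9 for genotype and slightly higher for treatment. Of all genes tested 18.4% had this order of signs. Of the 42 members 29 could be tested, which means that their probe was well above background on each array in the same dye, Cy5 or Cy3, and 25 were well above background in all 4 RNAs. No member passed limma's test at an adjusted p under 0.05 (Benjamini-Hochberg over 22731 probes). The count was 0 of 29 members, beside 0.0132% of the 15122 genes tested, and the smallest adjusted p among members was 0.0883. At an unadjusted p under 0.05, 9 members were counted, beside 19.6% of all genes tested.

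The probes are 60 bases long and sit mostly in gene families, so the sequences bear on what each value measures. The probes of Sprr2b, Sprr2e and Sprr2k are shown with the 20 bases that all 3 hold in capitals, a stretch from the proline-rich repeats of these genes. The run was found in 3 probes of the array. The probe of Sprr2g covers a similar repeat without this run, and that of Ivl, the lowest member, is shown for comparison. By the file headers (mm9) the probes lie at chr3:92121449-92121508 (Sprr2b), chr3:92156847-92156906 (Sprr2e), chr3:92237308-92237367 (Sprr2k) and chr3:92178685-92178744 (Sprr2g) on the plus strand, and at chr3:92375367-92375426 on the minus strand (Ivl).
Sprr2b probe: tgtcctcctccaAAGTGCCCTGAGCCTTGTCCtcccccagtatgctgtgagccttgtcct
Sprr2e probe: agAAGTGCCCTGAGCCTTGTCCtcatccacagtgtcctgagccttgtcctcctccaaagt
Sprr2k probe: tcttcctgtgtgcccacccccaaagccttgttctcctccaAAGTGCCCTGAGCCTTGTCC
Sprr2g probe: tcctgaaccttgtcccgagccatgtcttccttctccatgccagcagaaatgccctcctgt
Ivl probe: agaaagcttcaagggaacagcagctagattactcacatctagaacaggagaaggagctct
Sprr2b and Sprr2k shared 28 bases in a row, and Sprr2b and Sprr2e shared 22. No other member's probe shared 20 or more bases with the probe of another gene. Transcripts of Sprr2b, Sprr2e and Sprr2k may therefore be read in part by each other's probes, and their values are uncertain as values of single genes. Which exon or UTR each probe lies in was not analysed here.

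Lor and Ivl, the best-known structural proteins of the envelope, had opposite ratios. The Lor probe had a brightness of 849 in wild-type cells with TAM and 320 in ER-Sox9flox/flox cells with TAM, and of 535 with vehicle and 251 with TAM in the treatment comparison. Brightness is the background-corrected, normalized signal in arbitrary units, which is read within an array only. Both Sox9-expressing RNAs were brighter than the Sox9-deleted RNA on the same array. The log2 ratios were 1.41 and 1.09, with a mean of 1.25 ± 0.22 (SD, n = 2), and the adjusted p by limma was 0.0883. On average this is 2.37-fold, and Lor was rank 51 from the top of the 15122 genes. Lor was the 1 member at least 2-fold higher on both arrays, beside 0.377% of all genes tested.

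For Ivl the brightness was 928 in wild-type cells with TAM against 5341 in ER-Sox9flox/flox cells with TAM. In the treatment comparison it was 2562 with vehicle against 4808 with TAM. Here the Sox9-deleted RNA was the brighter on both arrays, and by very different amounts. The log2 ratios were -2.52 and -0.91, with a mean of -1.72 ± 1.14 (SD, n = 2), a 95% interval of -2.91 to -0.52 and a limma adjusted p of 0.198. Ivl ranked 11 from the bottom of all genes tested. The vehicle RNA and the wild-type RNA thus both lay below their partner, but the treatment comparison fell short of 2-fold.

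**Figure D1:**
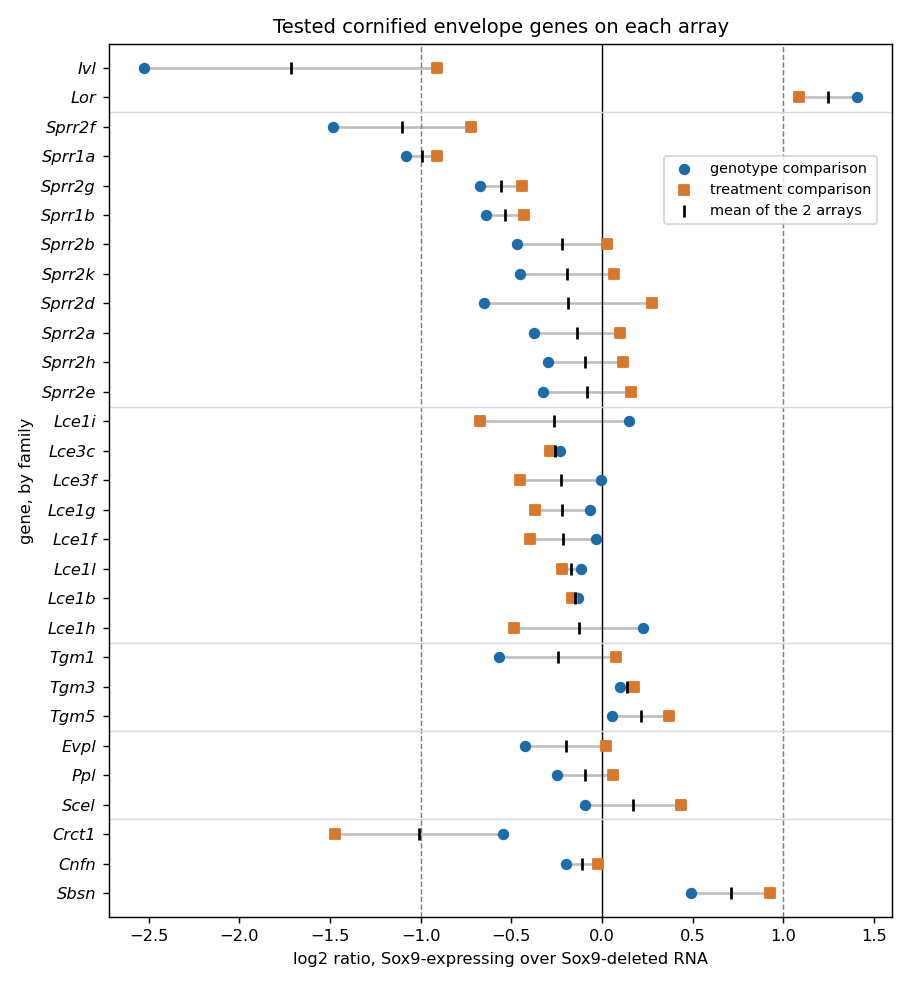
Log2 ratio of Sox9-expressing over Sox9-deleted RNA (x axis) for the 29 tested members, by family (y axis). Circles are the genotype comparison, squares the treatment comparison, black ticks their mean, and dashed lines mark 2-fold. Lor lies beyond the right dashed line on both arrays, and Ivl, Sprr2f, Sprr1a and Crct1 lie left of 0 on both, each with 1 array beyond the left dashed line.

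Among the Sprr genes, which encode short proline-rich proteins that bridge other envelope proteins, 10 of 12 were tested. All 10 were lower with Sox9 in the genotype comparison, where 52.2% of all genes tested were lower. In the treatment comparison 6 of the 10 were higher, beside 52.3% of all genes. The count lower on both arrays was 4, beside 33.8% of all genes, namely Sprr1a, Sprr1b, Sprr2f and Sprr2g.

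Sprr1a had the most even values of these. Its brightness was 4846 in wild-type cells against 10252 in ER-Sox9flox/flox cells, both with TAM, and 5153 with vehicle against 9679 with TAM. The Sox9-deleted RNA was brighter on each array, on average 1.99-fold. The log2 ratios were -1.08 and -0.91, averaging -0.995 ± 0.12 (SD, n = 2), with a limma adjusted p of 0.0883. Its paralog Sprr1b had ratios of -0.64 and -0.43 (limma adjusted p 0.144).

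Sprr2f and Sprr2g were also lower on both arrays. The brightness of Sprr2f was 167 against 467 in the genotype comparison and 168 against 276 in the treatment comparison, each time with the Sox9-expressing RNA first. Its ratios were -1.48 and -0.72 (mean -1.10 ± 0.54, SD, n = 2, limma adjusted p 0.161). The 167 lies close to the level of probes without detected signal on that array, so the ratio there may be understated. Sprr2g, which lies between Sprr2f and Sprr2h, had ratios of -0.67 and -0.44 (limma adjusted p 0.144). With the scanner software's processed signals the means were -2.03 for Sprr2f, -1.30 for Sprr2g and -1.13 for Sprr1b.

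The other 6 Sprr2 genes were split between the arrays. Sprr2a had log2 ratios of -0.37 and 0.10, Sprr2b of -0.47 and 0.03, and Sprr2d of -0.65 and 0.28, with the genotype comparison first. Sprr2e had -0.33 and 0.16, Sprr2h -0.30 and 0.12, and Sprr2k -0.45 and 0.07. Sprr2d (brightness 190 against 298) and Sprr2h (204 against 250) were dim in the genotype comparison, where members not tested reached 146. The sizes of their ratios should therefore not be set against each other across arrays. The 6 were between -0.65 and -0.30 when genotypes were compared and between 0.03 and 0.28 when treatments were, and they are set together here for these signs. Of all 29 tested members 10 had this order of signs, beside 18.4% of all genes tested. The mean of each was below 0 but turned positive when the arrays were centered on their median in place of loess. Sprr2b, Sprr2e and Sprr2k, which share the 20 bases in capitals above, lay between -0.47 and -0.33 in the genotype comparison. A second Sprr2a probe had 0.27 and 0.67, against the sign of the brighter probe in the genotype comparison, so the 2 probes of Sprr2a disagree. By its accession the gene called Sprr2a on the array is now Sprr2a1.

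Most stromal and muscle markers had the order of signs for which these 6 genes were set together, so the shared signs decide nothing. In the treatment comparison the 6 genes reached 0.28, stromal markers 1.13 and muscle markers 1.92. Of 8 stromal markers, 8 were lower with Sox9 in the genotype comparison and 7 were higher in the treatment comparison, for example Col3a1 with -1.63 and 1.13. Their summed brightness was 34974 in Cy5 and 59994 in Cy3 on the first array and 92892 and 55699 on the second, and all were detected. All 5 tested skeletal muscle markers had the same pattern, with Acta1 at -1.33 and 1.92. Over all genes tested, 18.4% were lower in the genotype and higher in the treatment comparison. Whether stromal RNA has a part in the Sprr2 values was not tested. In RNA from whole cultures, fewer cells of a type and less RNA per cell cannot be told apart.

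Of the 14 Lce genes, whose products join the envelope last, 8 were tested and 5 were below background in all 4 RNAs. The means of the 8 ran from -0.26 to -0.13. Their size depended on the processing: with the scanner software's processed signals the mean was -2.21 for Lce3c, -1.90 for Lce1g and -1.08 for Lce1l. In the treatment comparison 8 of 8 were lower with Sox9, between -0.67 and -0.16, where 47.7% of all genes tested were lower. In the genotype comparison they were between -0.23 and 0.23, with 6 lower. Lce1g, Lce1l and Lce3c passed the filter only through Cy3, the Sox9-deleted RNA, which favors lower ratios for them. The other tested Lce genes were well above background in all 4 RNAs. Lce3c had ratios of -0.23 and -0.29, and its second probe gave -0.25 and -0.21. In the genotype comparison its brightness was 137 against 160, and in the treatment comparison 69.9 against 85.3. That probe was not well above background in the Sox9-expressing RNA of either array, and the second probe was so in vehicle-treated cells only (limma adjusted p 0.229 for the first). Lce1g (-0.07 and -0.37) was not well above background in Sox9-expressing RNA by any probe. Its measured mean was 1.16-fold lower with Sox9, with a 95% interval of the log2 ratio of -0.52 to 0.08 (limma adjusted p 0.379).

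The remaining tested Lce genes were dim in every RNA. Lce1b had ratios of -0.13 and -0.16, Lce1f of -0.03 and -0.40, Lce1l of -0.12 and -0.22 and Lce3f of -0.0046 and -0.45. Lce1h, with 0.23 and -0.48, and Lce1i, with 0.15 and -0.67, were the 2 with opposite signs. The brightest value of Lce1i was 230, in wild-type cells, where members without detected signal reached 138. The 13 members that were not tested lay between 130 and 146 on the genotype array and between 53.6 and 75.7 on the treatment array. The higher floor of the genotype array pulls ratios of dim probes nearer to 0 there, so the sizes of the Lce ratios should not be set against each other across arrays.

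**Figure D2:**
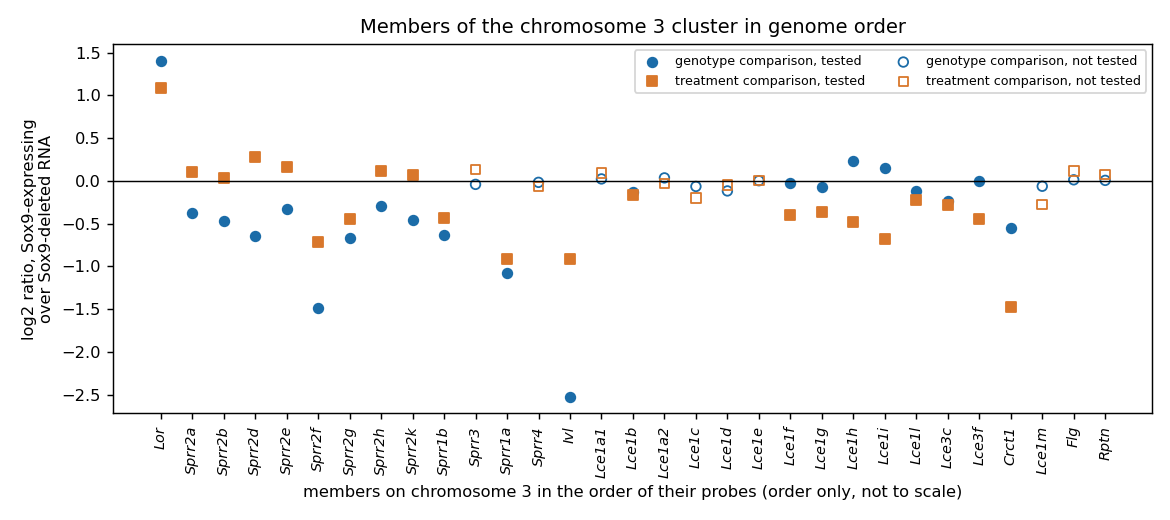
Log2 ratio (y axis) of the 31 members on chromosome 3, in the order of their probes along the chromosome (x axis, order only). Circles are the genotype and squares the treatment comparison, filled where tested. Lor at the left end is the highest, Ivl the lowest in the genotype comparison and Crct1 the lowest in the treatment comparison.

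Of all members, 31 lie on chromosome 3, where their probes begin between positions 91884206 and 93202664 of mm9, over 1.32 Mb, and 21 of these were tested. Lor lies at the low end next to Sprr2a. Ivl lies between Sprr4, which was not tested, and the Lce genes. Crct1 lies near the far end between Lce3f and Lce1m.

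Crct1, which lies among the Lce genes and encodes a small cysteine-rich protein of the cluster, differed most in the treatment comparison. Its brightness was 1327 in wild-type cells and 1940 in ER-Sox9flox/flox cells with TAM, and 684 with vehicle and 1896 with TAM. On both arrays the Sox9-deleted RNA was the brighter. The log2 ratios were -0.55 and -1.47, averaging -1.01 ± 0.65 (SD, n = 2), and the limma adjusted p was 0.198. Ivl had its larger difference on the other array.

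Sbsn, a secreted protein of suprabasal keratinocytes, had the next highest mean after Lor. It had a brightness of 1785 against 1270 in the genotype comparison and 2402 against 1261 in the treatment comparison, with the Sox9-expressing RNA first. The ratios were 0.49 and 0.93, averaging 0.71 ± 0.31 (SD, n = 2), and the adjusted p by limma was 0.160. Another Sbsn probe gave 0.28 and 0.82. Cornifelin (Cnfn), another envelope component, had -0.20 and -0.02.

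**Figure D3:**
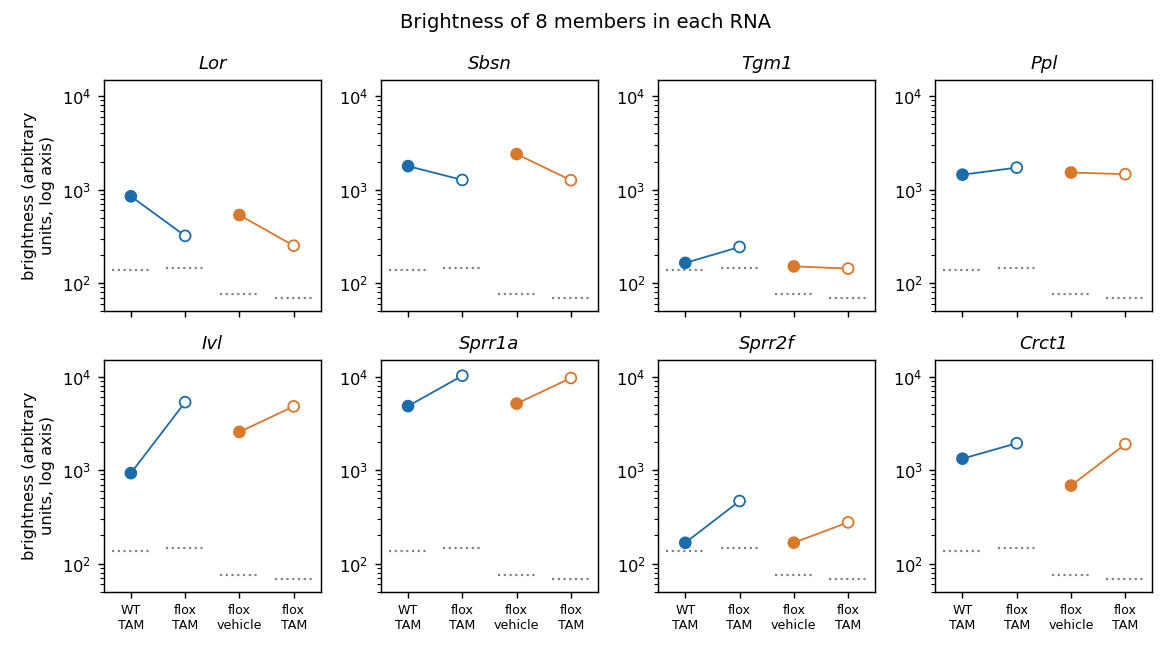
Brightness (y axis, arbitrary units, log axis) of 8 members in the 4 RNAs (x axis). Filled points are Sox9-expressing RNA and open points Sox9-deleted RNA, lines join the RNAs of 1 array, WT is wild type, flox is ER-Sox9flox/flox, and dotted lines give the highest brightness of the 13 members not tested. Lor and Sbsn go down from filled to open on both arrays, and Ivl, Sprr1a, Sprr2f and Crct1 go up.

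The transglutaminases, which cross-link the envelope, had mean ratios from -0.24 to 0.21. Tgm1, the membrane-bound transglutaminase of keratinocytes, had a brightness of 164 against 244 in the genotype comparison and 151 against 143 in the treatment comparison. Its ratios were -0.57 and 0.08, with a mean of -0.24 ± 0.46 (SD, n = 2), a 95% interval of -0.76 to 0.27 and a limma adjusted p of 0.529. The cytosolic Tgm3 had 0.10 and 0.18. Tgm5 had 0.05 and 0.37, with Cy3 not well above background on either array. Its measured mean was 1.16-fold higher with Sox9, with a 95% interval of the log2 ratio of -0.10 to 0.52 (limma adjusted p 0.393). With the scanner software's processed signals the mean of Tgm5 was 1.79 and that of Lor 1.59.

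Plakins tie the envelope to desmosomes and keratin filaments, and sciellin (Scel) is a further precursor. All 3 of these genes had opposite signs on the arrays, as had 32.4% of all genes tested. Periplakin (Ppl) had a brightness of 1447 against 1720 and then 1525 against 1464, with ratios of -0.25 and 0.06 (mean -0.10 ± 0.22, SD, n = 2, 95% interval -0.40 to 0.21, limma adjusted p 0.677). Envoplakin (Evpl), its partner, had 4779 against 6405 and then 5060 against 4976, with ratios of -0.42 and 0.02 (mean -0.20 ± 0.32, SD, n = 2, 95% interval -0.58 to 0.19, limma adjusted p 0.50). Both means turned positive under median centering. The second probes gave 0.11 and -0.11 for Ppl and -0.45 and -0.06 for Evpl. Scel had -0.09 and 0.43.

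Of the 13 members that were not tested, 11 were well above background in none of the 4 RNAs. These were the filaggrin-type genes Flg and Rptn, the late genes Krtdap, Casp14 and Cdsn, and Sprr4, Lce1a1, Lce1a2, Lce1c, Lce1e and Lce1m. Sprr3 was detected in 1 RNA, vehicle-treated ER-Sox9flox/flox cells, and Lce1d in 1 RNA, TAM-treated ER-Sox9flox/flox cells of the genotype comparison. No level can be given for these members. Flg and Casp14 stand for the last, granular steps of epidermal differentiation.

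**Figure D4:**
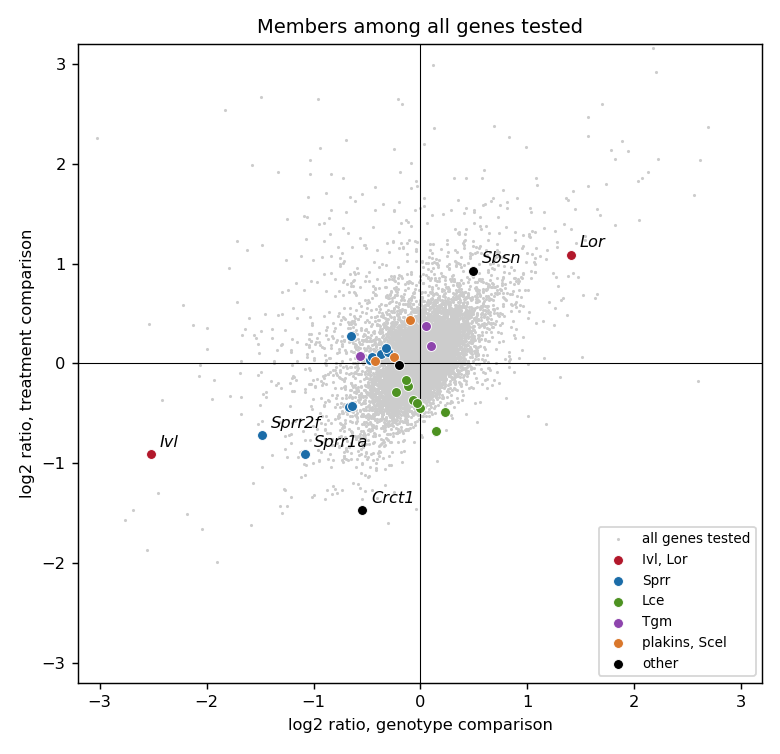
Log2 ratio in the genotype comparison (x axis) against the treatment comparison (y axis) for all genes tested (gray) and the 29 tested members, colored by family (6 gray genes lie outside the axes). Lor and Sbsn lie in the upper right, Ivl, Sprr2f, Sprr1a and Crct1 in the lower left, and the Lce genes below 0 on the y axis.

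Counted over the list, 4 of 29 tested members had positive ratios on both arrays and 13 had negative ones, against 33.9% and 33.8% of all genes tested. The other 12 had opposite signs. Lce1g, Lce1l and Lce3c passed the filter only through Cy3 and Tgm5 only through Cy5, in each case the dye with the higher signal. With both dyes required on both arrays, 25 members were left, 3 higher and 10 lower on both arrays. The median log2 ratio of the members was -0.25 for genotype and -0.02 for treatment, and the medians of all genes tested were -0.0092 and 0.012. With genotypes compared 23 of 29 were lower, beside 52.2% of all genes, and with treatments compared 15, beside 47.7%. Past 2-fold downward were 3 members (Ivl, Sprr2f and Sprr1a) in the genotype comparison, beside 1.08% of all genes, and 1 (Crct1) in the treatment comparison, beside 0.377%. Past 2-fold upward was 1 member (Lor) in each, beside 0.589% and 1.73%. The count at least 2-fold lower on both arrays was 0, beside 0.159%. When arrays were centered on the median in place of loess, the median of all genes moved to 0.02 and 0.42, so that 4 members were higher and 11 lower on both arrays beside 50.4% and 11.2% of all genes. Under that scaling Lor, Sbsn, Ivl and Sprr2f passed the adjusted threshold, with limma adjusted p-values of 1.2e-05, 0.0113, 0.000104 and 0.0418. Calls rose over the whole array there, to 522 of 22731 probes tested, against 2 under loess.

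Promoters of the members were searched for TGANTCA, where N is any base. This is a loose form of the site of AP-1 factors, which are known activators of Ivl and Lor in keratinocytes. Both strands of the 250 bases before the start of each gene were read (RefSeq, GRCm38.p6). All 42 members matched a RefSeq gene, and 39 promoters of 37 members were read, with none for Crct1, Evpl, Ppl, Sprr2g and Lce1f. Of these promoters 15 (38.5%) held TGANTCA, against 2217 of 32851 promoters of all genes (6.75%). Many of the 15 belong to related genes of the Sprr family, so they are not independent. Among tested members with a promoter, 2 of 4 higher on both arrays held TGANTCA, 4 of 10 lower on both and 6 of 10 with opposite signs. These counts were not tested. It was not found in the promoters of the 13 Lce genes searched. ACAATGG, a site of Sox factors, was found in 1 member promoter (2.56%, Sprr3) and in 3.02% of all. The promoters below belong to members with opposite ratios, with TGANTCA matches in capitals. They lie at chr3:92083143-92083392, minus strand (Lor), chr7:30751221-30751470, plus strand (Sbsn), chr3:92573736-92573985, minus strand (Ivl), chr3:92485882-92486131, minus strand (Sprr1a) and chr3:92364937-92365186, plus strand (Sprr2f).
Lor promoter: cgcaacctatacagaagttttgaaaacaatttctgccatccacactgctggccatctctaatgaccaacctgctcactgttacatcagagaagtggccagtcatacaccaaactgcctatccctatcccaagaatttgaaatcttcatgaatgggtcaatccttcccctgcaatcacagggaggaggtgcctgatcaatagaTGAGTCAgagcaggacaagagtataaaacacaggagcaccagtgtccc
Sbsn promoter: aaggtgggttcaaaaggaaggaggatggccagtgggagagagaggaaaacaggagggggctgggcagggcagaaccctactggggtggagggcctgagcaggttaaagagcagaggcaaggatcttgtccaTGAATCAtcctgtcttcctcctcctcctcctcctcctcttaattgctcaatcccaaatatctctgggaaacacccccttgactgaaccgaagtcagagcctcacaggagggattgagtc
Ivl promoter: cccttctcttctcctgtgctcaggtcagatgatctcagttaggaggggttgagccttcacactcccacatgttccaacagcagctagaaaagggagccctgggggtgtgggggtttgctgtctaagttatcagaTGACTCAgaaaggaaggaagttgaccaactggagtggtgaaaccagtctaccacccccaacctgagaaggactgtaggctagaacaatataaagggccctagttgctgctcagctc
Sprr1a promoter: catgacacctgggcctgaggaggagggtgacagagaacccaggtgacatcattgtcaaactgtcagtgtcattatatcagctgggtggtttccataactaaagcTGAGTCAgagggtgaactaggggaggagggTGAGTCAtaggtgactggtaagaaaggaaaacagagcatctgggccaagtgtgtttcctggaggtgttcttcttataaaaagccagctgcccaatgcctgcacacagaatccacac
Sprr2f promoter: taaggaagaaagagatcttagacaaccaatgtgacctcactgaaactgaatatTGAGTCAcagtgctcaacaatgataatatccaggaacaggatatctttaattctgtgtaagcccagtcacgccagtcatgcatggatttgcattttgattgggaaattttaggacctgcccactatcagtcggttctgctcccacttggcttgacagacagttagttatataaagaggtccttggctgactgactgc
A match is a match of letters, and no binding was measured. The match of Sbsn reads TGAATCA, and the others shown read TGAGTCA or TGACTCA. Lor, which was higher with Sox9, and Ivl, which was lower, each held 1 match, and Sprr1a held more than 1.

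Keratins of the suprabasal layers accompany the envelope in squamous epithelium. Of 5 listed, 4 were tested, and on both arrays 3 had positive ratios, beside 33.9% of all genes tested. Krt10, the partner of Krt1 in epidermis, had ratios of 1.78 and 2.14 and was 1 of the genes at least 2-fold higher on both arrays. Krt4, of internal stratified epithelia, had -0.43 and 0.42. By limma 0 passed the adjusted threshold and 3 had an unadjusted p under 0.05, beside 19.6% of all genes tested.

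The transcription factors that drive cornification were listed by 18 names, of which Zfp750 and Znf750 are names of 1 gene. Of these names 16 were on the array, all of them tested. With Sox9, 9 were higher on both arrays and 5 were lower on both, beside 33.9% and 33.8% of all genes. By limma 5 had an unadjusted p under 0.05, beside 19.6% of all genes, and 0 passed the adjusted threshold. The highest was Trp63 (1.65 and 1.55), the p53 family factor of basal and stratified epithelium, which is also counted among the basal markers below. The lowest was the homeodomain protein Hopx (-1.18 and -0.28). The median of the 16 means was 0.11.

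Enzymes of the lipid barrier lay mostly below 0. Of 7 tested, 1 was higher with Sox9 on both arrays and 5 were lower, and Cyp4f39, a fatty acid hydroxylase, was the highest (0.25 and 0.97). Of 8 tested proteases and inhibitors of cornification, 1 was higher and 5 were lower on both arrays, from Serpinb2 (-0.30 and -1.60), a serpin, to Asprv1 (0.37 and 0.69), a protease that processes filaggrin. Of 5 other tested genes of the epidermal differentiation complex and its neighbors, 1 was higher and 2 were lower on both arrays. Trichohyalin (Tchh) was the lowest of these (-0.36 and -0.43) and S100a11 the highest (0.12 and 0.21). In these 3 lists 0 genes passed limma's adjusted threshold, and 4, 4 and 1 had an unadjusted p under 0.05, beside 19.6% of all genes. The medians of the means were -0.26, -0.24 and -0.13. Over all genes tested, 33.9% were higher and 33.8% lower on both arrays.

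Marker genes were read to see which cells the cultures held, where 33.9% of all genes tested were higher and 33.8% lower on both arrays. All 6 basal prostate markers had positive ratios on both arrays, among them Krt5 (2.13 and 1.91) and Krt14 (2.07 and 1.86), with a summed brightness of 353138 in Cy5 and 111778 in Cy3 in the genotype comparison and 313647 and 111449 in the treatment comparison. Of 4 tested luminal markers 2 were higher and 1 was lower, and Pbsn, which defines prostate luminal cells, was not tested because it was not detected. Shh and Foxa1 of the UGS epithelium were not detected either, while Hoxb13 was (0.37 and 0.33). Of 3 tested urothelial markers, Upk1a (-0.75 and -0.44) and Upk1b (-1.52 and -0.60) were lower on both arrays, as were Ivl, Sprr1a, Sprr2f and Crct1, while Upk2 had -0.16 and 0.10. The summed brightness of 4 urothelial markers was 1261 in Cy5 and 2712 in Cy3 and then 1779 and 2534. Of 3 tested immune markers 2 were lower on both arrays, with sums of 2375 and 3841 and then 3790 and 4346, and Ptprc, Emr1 and Cd3e were not detected. The part of basal, urothelial or immune cells in the values of the members was not tested. Sox9 itself was measured by 3 probes. The brightest had 2.69 and 2.37 and another 1.18 and 1.27, but the third had -0.997 and -1.22, so 2 probes followed the labels and 1 went the other way. Which of them lie in the floxed part was not analysed here.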

How the data were processed

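RNA of prostaspheres was compared on 2 Agilent two-color arrays of 1 slide. The authors deposited scanner output of Agilent Feature Extraction 10.5.1.1, with a mean intensity per spot and channel and a median background intensity, not normalized. The deposited log10 ratio and processed intensity of that software, and the authors' table of processed values, which match log2 ratios of Cy5 over Cy3 (correlation with the log10 ratios 0.983 and 0.987 across spots), were used as alternatives only. The submitters' processing notes name limma. How the table was made is not given in the sources used here.

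Titles, genotypes, treatments and dyes were used to assign the RNAs. Source names call the Cy5 RNA SOX9 and the Cy3 RNA Ctrl, which, taken as the gene deleted, gives every ratio the other sign. Background was corrected by normexp (offset 50), arrays were normalized by loess, and spots of a probe were averaged with 126 and 130 outlier spots left out. Of 45018 spots 1639 were controls and 0 were saturated. Of 41174 probes, 22731 were well above background on each array in the same dye and were tested (53.9 to 56.2% of probes were well above background per RNA). The mean of both arrays was tested against 0, 2-sided, with lmFit and eBayes of limma 3.58.1 (R 4.3.3). With 1 residual degree of freedom, the spread rests mainly on the prior (2.80 degrees of freedom, SD 0.119). Each gene is given by the brightest of its probes. The number of arrays limits the precision. Code was tested on simulated data. Python 3.11.15, pandas 2.3.3, numpy 2.4.6 and matplotlib 3.10.9 were used for the sequences and figures.

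The genes named are every tested member with both arrays' values, with full statistics for members past 2-fold on both arrays, the highest and lowest, and Ivl, Lor, Tgm1, Ppl and Evpl. Statistics of Sprr1a, Sprr2f, Crct1 and Sbsn were added after their values were seen. Of the other pathway lists, the highest and lowest genes are named, except for a gene that is not reported here. The members and lists were chosen with earlier results of these data known.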

Additional observations from a re-analysis of the deposited data

How the results depend on the processing

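No member passed the adjusted threshold under any alternative but median centering in place of loess, where 4 did, and the methods' t-test gave 0 members at an unadjusted p under 0.05 and 0 after adjustment. Scaling the arrays to the same spread left 0 members at least 2-fold higher on both arrays. With the scanner software's processed signals 2 were at least 2-fold higher and 2 at least 2-fold lower. The share of all genes past 2-fold under these signals is not given here. The median of the members was -0.44 there, beside medians of all genes of 0.0023 for genotype and -0.030 for treatment. Without the filter on dim probes all 42 members were counted, among them the 13 not tested. Of these, 9 were higher and 18 lower on both arrays, beside 33.9% and 33.8% of the genes tested. Leaving out 1 array at a time gave 1 to 3 members at least 2-fold lower, 6 to 14 higher and 15 to 23 lower. The median was then -0.25 to -0.0206. These are the counts of single arrays, where 52.2% of all genes tested were lower for genotype and 47.7% for treatment. At least 2-fold lower were 1.08% and 0.377% of all genes. Under median centering 8 means reversed, to 0.19 (Evpl), 0.22 (Ppl), 0.38 (Sprr2a), 0.21 (Sprr2b), 0.014 (Sprr2d), 0.28 (Sprr2e), 0.081 (Sprr2h) and 0.17 (Sprr2k), and averaging all probes of a gene turned Sprr2a to 0.17. The cause was not tested. Over all tested probes limma called 2, and 522 under median centering, 68 with the authors' processed values and 21 without the filter. Lor, Sbsn, Ivl, Sprr1a, Sprr2f and Crct1 kept their sign in each alternative run, with values of 1.09 to 1.59 for Lor and -2.52 to -0.91 for Ivl. Of these limits, 1.09, -2.52 and -0.91 are ratios of 1 array. Leaving out 1 array could not turn a sign here, since each of these genes had the same sign on both arrays. The other runs used the same 2 arrays. Counting the Sprr2 probes with the shared run once, an alternative chosen after seeing the data, moved the median to -0.20 and could not move the counts above, since all 3 genes had opposite signs and no call. No paired analysis was possible because each array already holds both RNAs and there is 1 group of ratios. Signal over background limits the dim members, among them the Lce genes and Tgm5, and 2 arrays with 1 dye orientation limit all members.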
